A study of Mus musculus with 12 samples.

Results

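The 41 genes described here carry out DNA replication or mitosis, and they were taken by symbol, whatever their levels, from the 55401 genes in the count table. Replication was represented by 16 of them (Mcm2 to Mcm7, Cdc6, Cdc45, Gins2, Pcna, Rrm1, Rrm2, Tyms, Tk1, Ccne1 and Ccne2), and mitosis by the other 25. RNA was measured in living cells sorted from B16-OVA tumours, a mouse melanoma that makes the model antigen ovalbumin, by 2 surface proteins: CD45, carried by white blood cells, and CD11c, carried by dendritic cells and many macrophages. All mice were wild type, and each of 4 groups had 3 libraries. Mice of the combined group received 20 Gy of radiation on day 10 of tumour growth. They were also given a fusion protein, 20 mcg on the day of radiation and another 10 mcg on day 14. The fusion protein group received the same doses of protein without radiation, the 20 Gy group received the radiation alone, and the untreated group received neither. Tumours of all groups were taken on day 17. The labels do not say what the fusion protein is made of, how old the mice were, whether tumours were pooled, or whether libraries of a group came from different mice. The p-values therefore reflect how far these libraries varied, and part of that variation may be technical.

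A cell that is about to divide first copies its DNA and then separates the copies. Cyclin E opens DNA replication, the Mcm ring unwinds the double helix with Cdc45 and the GINS complex, Pcna clamps the polymerase to the template, and ribonucleotide reductase, thymidylate synthase and thymidine kinase supply the building blocks. Cyclins A and B with the kinase Cdk1 then drive mitosis, in which kinetochores attach chromosomes to the spindle and motor proteins divide the cell. Mature dendritic cells and macrophages divide little, whereas their precursors and activated lymphocytes divide readily. In RNA of sorted cells, a larger share of dividing cells and more RNA of these genes per cell cannot be told apart.

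Reads assigned to genes numbered 14462032 to 23985496 per library. The sorting markers Ptprc, which encodes CD45, and Itgax, which encodes CD11c, summed to 43084 to 52853 normalized counts in combined, 33716 to 61160 in fusion protein, 35483 to 52136 in 20 Gy and 39356 to 57289 in untreated libraries. Of 1754 olfactory and related receptor genes, which leukocytes do not normally use, 57.7% had a read in the first combined library, and 78.96% and 59.0% in the first and second libraries of the 20 Gy group, while the other 9 libraries ranged between 4.79% and 39.7%. Every comparison below was therefore also fitted without these 3 libraries. All 41 genes passed the filter on low values, which asked that 3 or more libraries reach a normalized count of 10, as did 18274 genes in all.

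Promoters of cell cycle genes are known for a few short elements, so they are shown here for 5 of the 6 genes that passed a test below (Cenpe, Prc1, Plk1, Cdc45 and Ccne1), with Cdk1, Top2a, Mcm6 and Rrm1 beside them as examples of how the letters differ between mitosis and replication genes. Promoter windows from RefSeq (GRCm38.p6, the build of mm10), 250 bases before to 50 after each start, were held for 34 of the 41 genes, 21 of mitosis and 13 of replication. The 120 bases that end at the transcription start are printed for these 9, on the strand of the gene. Capitals mark the letters of 3 motifs on either strand: the cell cycle homology region TTTGAA or its reverse complement TTCAAA, the CCAAT box (CCAAT or ATTGG), and the E2F site (TTCCCGC or TTGGCGC, or GCGGGAA or GCGCCAA on the other strand).
Cenpe, chr3:135212443-135212562, plus strand: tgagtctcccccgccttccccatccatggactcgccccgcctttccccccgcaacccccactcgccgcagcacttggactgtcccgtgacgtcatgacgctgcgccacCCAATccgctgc
Prc1, chr7:80294356-80294475, plus strand: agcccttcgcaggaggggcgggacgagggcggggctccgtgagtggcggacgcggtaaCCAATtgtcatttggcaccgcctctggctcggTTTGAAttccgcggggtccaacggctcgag
Plk1, chr7:122159315-122159434, plus strand: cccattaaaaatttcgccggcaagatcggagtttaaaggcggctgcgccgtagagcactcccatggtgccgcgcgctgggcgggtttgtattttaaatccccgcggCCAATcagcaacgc
Cdc45, chr16:18811973-18812092, minus strand: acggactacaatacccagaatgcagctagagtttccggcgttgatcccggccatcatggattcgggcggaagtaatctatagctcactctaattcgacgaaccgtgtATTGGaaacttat
Ccne1, chr7:38107491-38107610, minus strand: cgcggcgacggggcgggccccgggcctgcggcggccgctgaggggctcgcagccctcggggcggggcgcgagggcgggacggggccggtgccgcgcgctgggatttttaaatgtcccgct
Cdk1, chr10:69352913-69353032, minus strand: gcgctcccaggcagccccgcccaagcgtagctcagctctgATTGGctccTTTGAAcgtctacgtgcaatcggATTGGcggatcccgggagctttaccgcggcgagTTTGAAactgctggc
Top2a, chr11:99024190-99024309, minus strand: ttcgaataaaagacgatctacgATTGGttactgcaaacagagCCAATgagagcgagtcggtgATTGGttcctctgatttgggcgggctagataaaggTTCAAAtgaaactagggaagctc
Mcm6, chr1:128359706-128359825, minus strand: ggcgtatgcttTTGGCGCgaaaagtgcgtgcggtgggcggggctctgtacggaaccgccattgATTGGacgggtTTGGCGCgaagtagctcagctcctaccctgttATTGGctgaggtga
Rrm1, chr7:102441575-102441694, plus strand: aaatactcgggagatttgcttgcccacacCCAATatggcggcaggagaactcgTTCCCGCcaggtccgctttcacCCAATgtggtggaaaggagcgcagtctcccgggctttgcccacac

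The mitosis gene Cdk1, the kinase that starts mitosis, held 2 cell cycle homology regions in these bases, and Top2a, which untangles DNA, and Prc1, which bundles the spindle midzone, held 1 each. These mitosis genes also held CCAAT boxes. The replication genes Mcm6, a helicase subunit, and Rrm1, the large subunit of ribonucleotide reductase, held E2F letters and CCAAT boxes but no cell cycle homology region. Cenpe, a kinetochore motor, and Cdc45, a helicase subunit, each had a CCAAT box and neither of the other motifs in this stretch, as did Plk1, a mitotic kinase. Elsewhere in their windows, a cell cycle homology region lay at base 31 from the start in Plk1 and at bases −240 and 11 in Cdc45. Cyclin E1, encoded by Ccne1, had none of these letters in its window. Over whole windows, the cell cycle homology region lay in 14 of 21 mitosis genes (66.67%) and 2 of 13 replication genes (15.38%), against 20.23% of the 27025 genes with a window. The CCAAT box lay in 16 of 21 mitosis genes (76.19%) and 9 of 13 replication genes (69.23%), against 41.06% of all genes. E2F letters lay in 3 of 21 mitosis genes (14.29%) and 6 of 13 replication genes (46.15%), against 7.79% of all genes, and those 6 were Mcm3, Mcm5, Mcm6, Mcm7, Cdc6 and Rrm1. Cell cycle homology region and CCAAT box stood together in 61.9% of mitosis genes, 15.38% of replication genes and 7.97% of all genes. The letters GCGCCAA and CCAAT share bases where they overlap, as in Ccnb1. A match describes letters in the window and does not show that a factor binds there.

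**Figure D1:**
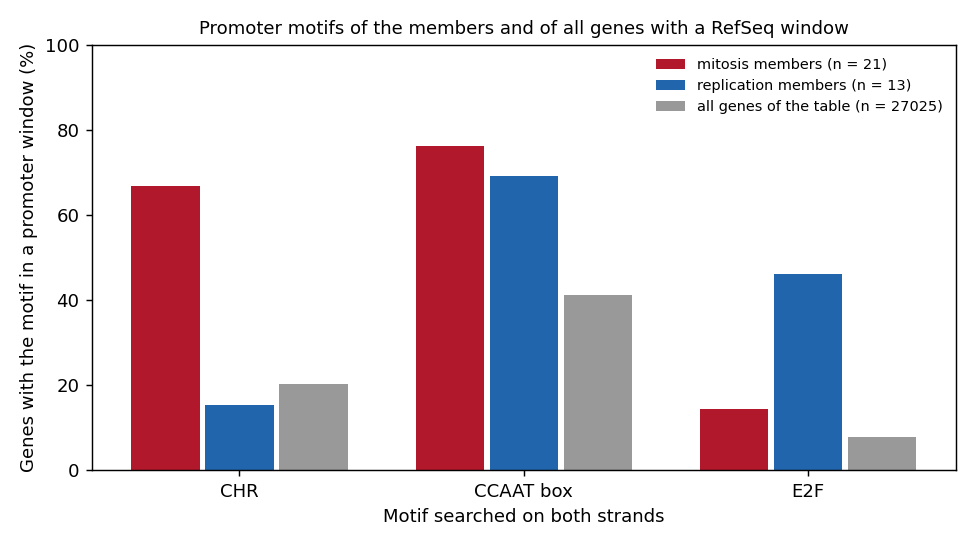
Share of genes (y axis, %) with each motif (x axis) on either strand of a RefSeq promoter window, for 21 mitosis genes, 13 replication genes and all 27025 genes with a window. The cell cycle homology region (CHR) is at 66.67% in mitosis genes and 15.38% in replication genes, and the E2F bar is at 46.15% in replication genes and 14.29% in mitosis genes.

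All 41 genes were read in every library, over a wide range of levels. Per kilobase of exon and averaged over 12 libraries, the normalized count ranged between 29.9 for Ccnb1 and 1101.7 for Pcna. After Pcna came Mki67, the Ki-67 antigen that coats mitotic chromosomes, with 607, and the helicase subunits Mcm6 with 589 and Mcm3 with 579. Replication genes had a median of 145 per kilobase and mitosis genes a median of 79.3 per kilobase. Among role groups, the helicase and its loaders had the widest span, 40.4 for Gins2 to 589 for Mcm6.

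Across libraries the 41 genes ran largely together. Fusion protein library 3 was the highest of all 12 libraries in 36 genes, which included 16 of 16 replication and 20 of 25 mitosis genes. The lowest library was untreated in 34 genes (library 1 in 15, library 2 in 7 and library 3 in 12), 20 Gy library 1 in 6 replication genes and combined library 2 in 1. The mean of log2(normalized count + 1) over the 25 mitosis genes was 8.80, 8.50 and 8.78 in combined libraries, 8.93, 8.34 and 9.33 in fusion protein libraries, 8.19, 8.33 and 8.63 in 20 Gy libraries and 7.79, 7.94 and 7.88 in untreated libraries. Over the 16 replication genes it was 9.50, 9.40 and 9.55 in combined libraries, 9.52, 9.16 and 10.12 in fusion protein libraries, 8.74, 9.03 and 9.20 in 20 Gy libraries and 8.60, 8.97 and 9.12 in untreated libraries. Mitosis means of untreated libraries lay below those of all 9 treated libraries, whereas replication means of 20 Gy and untreated libraries overlapped.

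**Figure D2:**
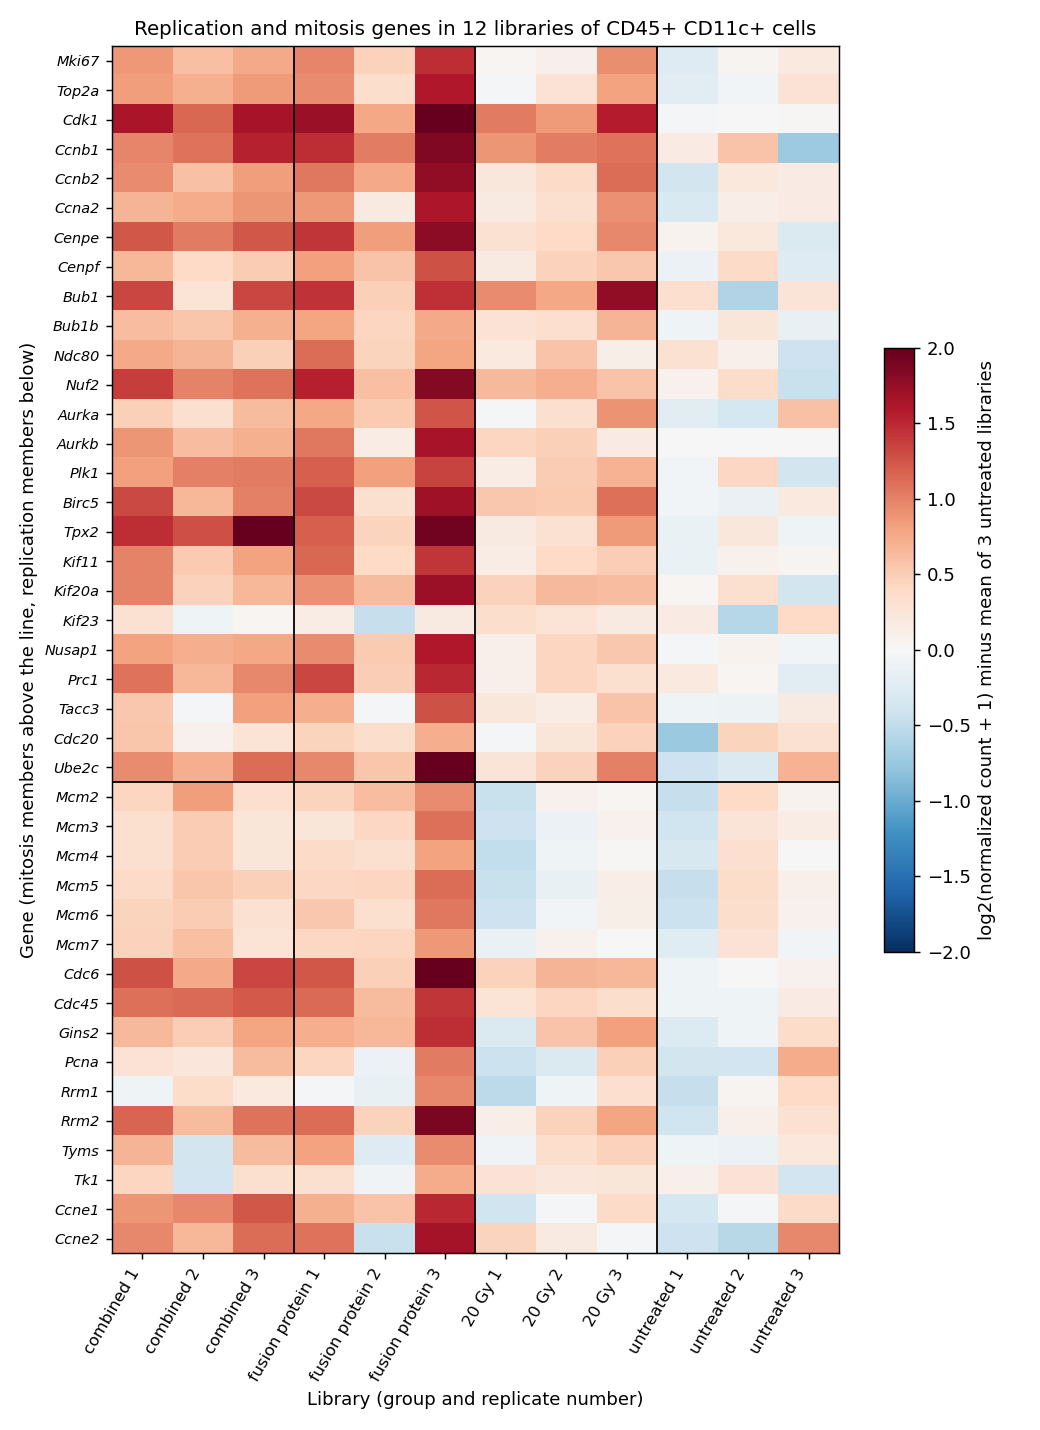
Levels of the 41 genes (rows) in 12 libraries (columns, by group and replicate number), as log2(normalized count + 1) minus the mean of the 3 untreated libraries of that gene; mitosis genes stand above the horizontal line. The column of fusion protein library 3 is the darkest red, with the highest value of 36 genes, and Kif23 is pale throughout.

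**Figure D3:**
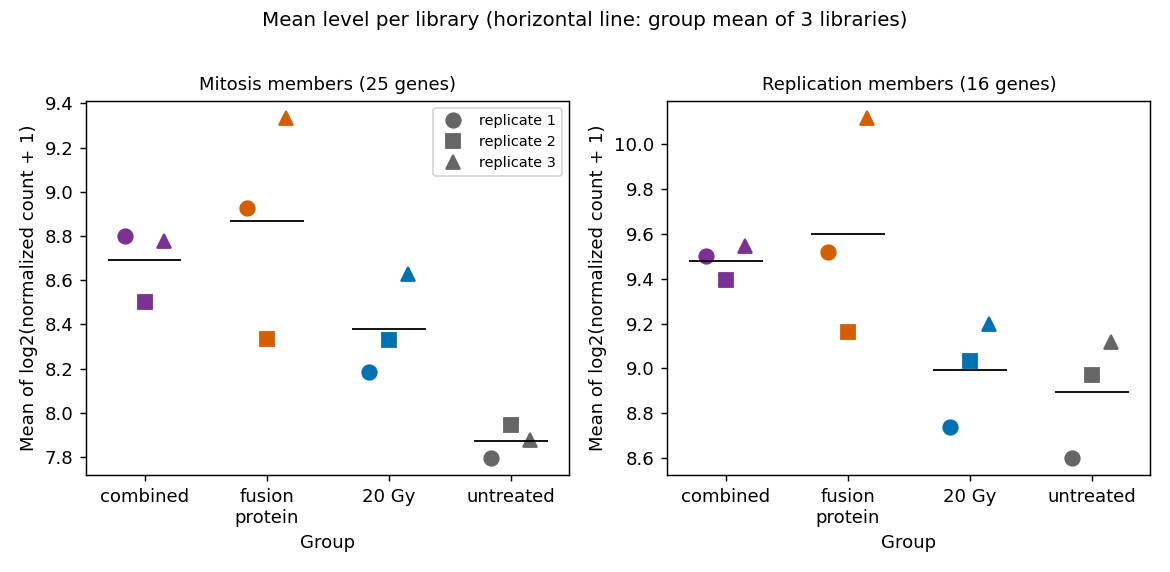
Mean of log2(normalized count + 1) per library (y axis) over 25 mitosis genes (left) and 16 replication genes (right) by group (x axis); symbols give the replicate number and lines the group means. Untreated libraries lie at 7.79 to 7.94 for mitosis genes, below every treated library, and 20 Gy and untreated libraries overlap for replication genes.

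With the fusion protein alone, 40 of 41 genes were higher than in untreated tumours, and 1, the kinetochore motor Cenpe, passed the test. Cenpe had 1120.1, 743 and 1449 normalized counts in fusion protein libraries, against 439, 484 and 341 in untreated libraries. All 3 fusion protein values lay above all untreated values, and library 3 was the highest. Cenpe rose by a log2 fold change of 1.35 ± 0.26 (limma, ± SE, adjusted p = 0.0444 over 18274 genes), a 2.55-fold change with a 95% interval of 0.77 to 1.93 on the log2 scale. Over all genes 0.744% passed this threshold, an adjusted p under 0.05. The call held in fits without fusion protein library 2 or 20 Gy library 3 (adjusted p 0.0175 and 0.0299) and was lost without each of the other 10 libraries, where adjusted p was 0.0631 to 0.187.

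The median log2 fold change of fusion protein against untreated was 0.95 over the 41 genes, 1.02 over mitosis and 0.65 over replication genes, against −0.01 over all genes tested. An unadjusted p under 0.05 was reached by 33 of 41 genes, against 8.41% of all genes. In 28 of 41 genes all 3 fusion protein values lay above all 3 untreated values, against 5.94% of all genes. Same-numbered fusion protein and untreated libraries deviated together, and with the replicate number as a block 20 of 41 genes passed, against 3.29% of all genes. These were 16 mitosis genes (Mki67, Top2a, Cdk1, Ccnb1, Ccnb2, Cenpe, Cenpf, Bub1, Nuf2, Plk1, Birc5, Tpx2, Kif11, Nusap1, Prc1 and Ube2c) and 4 replication genes (Cdc6, Cdc45, Rrm2 and Ccne1). None of the 6 Mcm subunits passed with the block, with adjusted p of 0.0623 for Mcm2 to 0.154 for Mcm4. The block was fitted over all 12 libraries, including those of combined and 20 Gy, where the numbers were not taken to pair libraries.

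Among cyclins and Cdk1, Cdk1 had 316, 163 and 390.0 normalized counts in fusion protein libraries, against 92.9, 94.9 and 96.2 in untreated libraries. The untreated values lay close together and below all fusion protein values. The log2 fold change of Cdk1 was 1.51 ± 0.33, with an adjusted p of 0.0707 (limma) and of 0.00461 with the block. Its partners, the B cyclins Ccnb1 and Ccnb2, had log2 fold changes of 1.45 ± 0.35 and 1.20 ± 0.32 and passed with the block (adjusted p = 0.0479 and 0.0206, limma), while Ccna2, cyclin A, at 0.89 ± 0.33, did not pass in either fit.

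Among kinetochore and checkpoint genes besides Cenpe, log2 fold changes ran from 0.66 for Bub1b, a checkpoint kinase, to 1.33 for Nuf2, a subunit of the Ndc80 complex that grips microtubules. Nuf2 had 351, 180.3 and 425 normalized counts in fusion protein libraries, against 125, 152 and 86.9 in untreated libraries, with groups that did not overlap and an adjusted p of 0.112 (limma; 0.0357 with the block). Its partner Ndc80 was at 0.78 ± 0.25, and Cenpf, a large kinetochore protein, at 0.88 ± 0.23. Of mitotic kinases and their passengers, Plk1, which acts from mitotic entry to cytokinesis, was at 1.12 ± 0.27, the survivin gene Birc5 at 1.11 ± 0.34, and the aurora kinases Aurkb and Aurka at 0.95 ± 0.33 and 0.85 ± 0.34. Plk1 and Birc5 did not pass in the fit without the block (adjusted p = 0.112 and 0.266, limma) and passed with it (0.0388 and 0.0278).

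Of spindle and cytokinesis genes, Tpx2, which nucleates spindle microtubules, was at 1.19 ± 0.34, Prc1 at 1.12 ± 0.27, Nusap1, another spindle protein, at 1.02 ± 0.25, and the motors Kif20a and Kif11 at 1.09 ± 0.30 and 0.99 ± 0.25. Tacc3, which strengthens spindle fibres, was at 0.65 ± 0.32. Kif23, a motor of the central spindle, stood outside this pattern and is singled out here after its values were seen. It had 770.4, 589.9 and 644 normalized counts in combined libraries, 692, 453 and 704 in fusion protein libraries, 801, 758 and 705 in 20 Gy libraries and 702, 421 and 826 in untreated libraries. Untreated values of Kif23 spanned the whole range of the other groups. Its log2 fold change was −0.05 ± 0.26 for fusion protein against untreated (adjusted p = 0.999, limma).

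Ube2c, the ubiquitin-conjugating partner of the anaphase-promoting complex, had 259, 194 and 528 normalized counts in fusion protein libraries, against 98.8, 109 and 216 in untreated libraries. Untreated library 3 lay above fusion protein library 2, and the log2 fold change of 1.17 ± 0.40 had an adjusted p of 0.361 (limma; 0.018 with the block). Cdc20, the activator of the same complex, was at 0.51 ± 0.33 and did not pass.

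On the replication side, Cdc6, which loads the helicase, had the highest log2 fold change with the fusion protein, 1.25 ± 0.34, followed by Rrm2, Cdc45, Gins2 and Ccne1 at 1.16, 1.07, 0.96 and 0.93. The small reductase subunit Rrm2 had 652, 415 and 1109.7 normalized counts in fusion protein libraries, against 228, 321 and 370.4 in untreated libraries, with no overlap. Its adjusted p was 0.245 (limma) and 0.027 with the block. The large subunit Rrm1 was at 0.26 ± 0.33, thymidylate synthase Tyms at 0.49 ± 0.36 and thymidine kinase Tk1 at 0.33 ± 0.29, all with overlapping groups.

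The Mcm subunits had log2 fold changes of 0.51 (Mcm4) to 0.67 (Mcm2) with the fusion protein, and each had an unadjusted p under 0.05. Their SE was 0.19 to 0.26. Pcna had 2958, 2018 and 4518 normalized counts in fusion protein libraries, against 1703, 1691 and 3674 in untreated libraries, where library 3 lay above fusion protein libraries 1 and 2. Its log2 fold change of 0.45 ± 0.37 was close to that of the Mcm subunits but with a wider error.

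**Figure D4:**
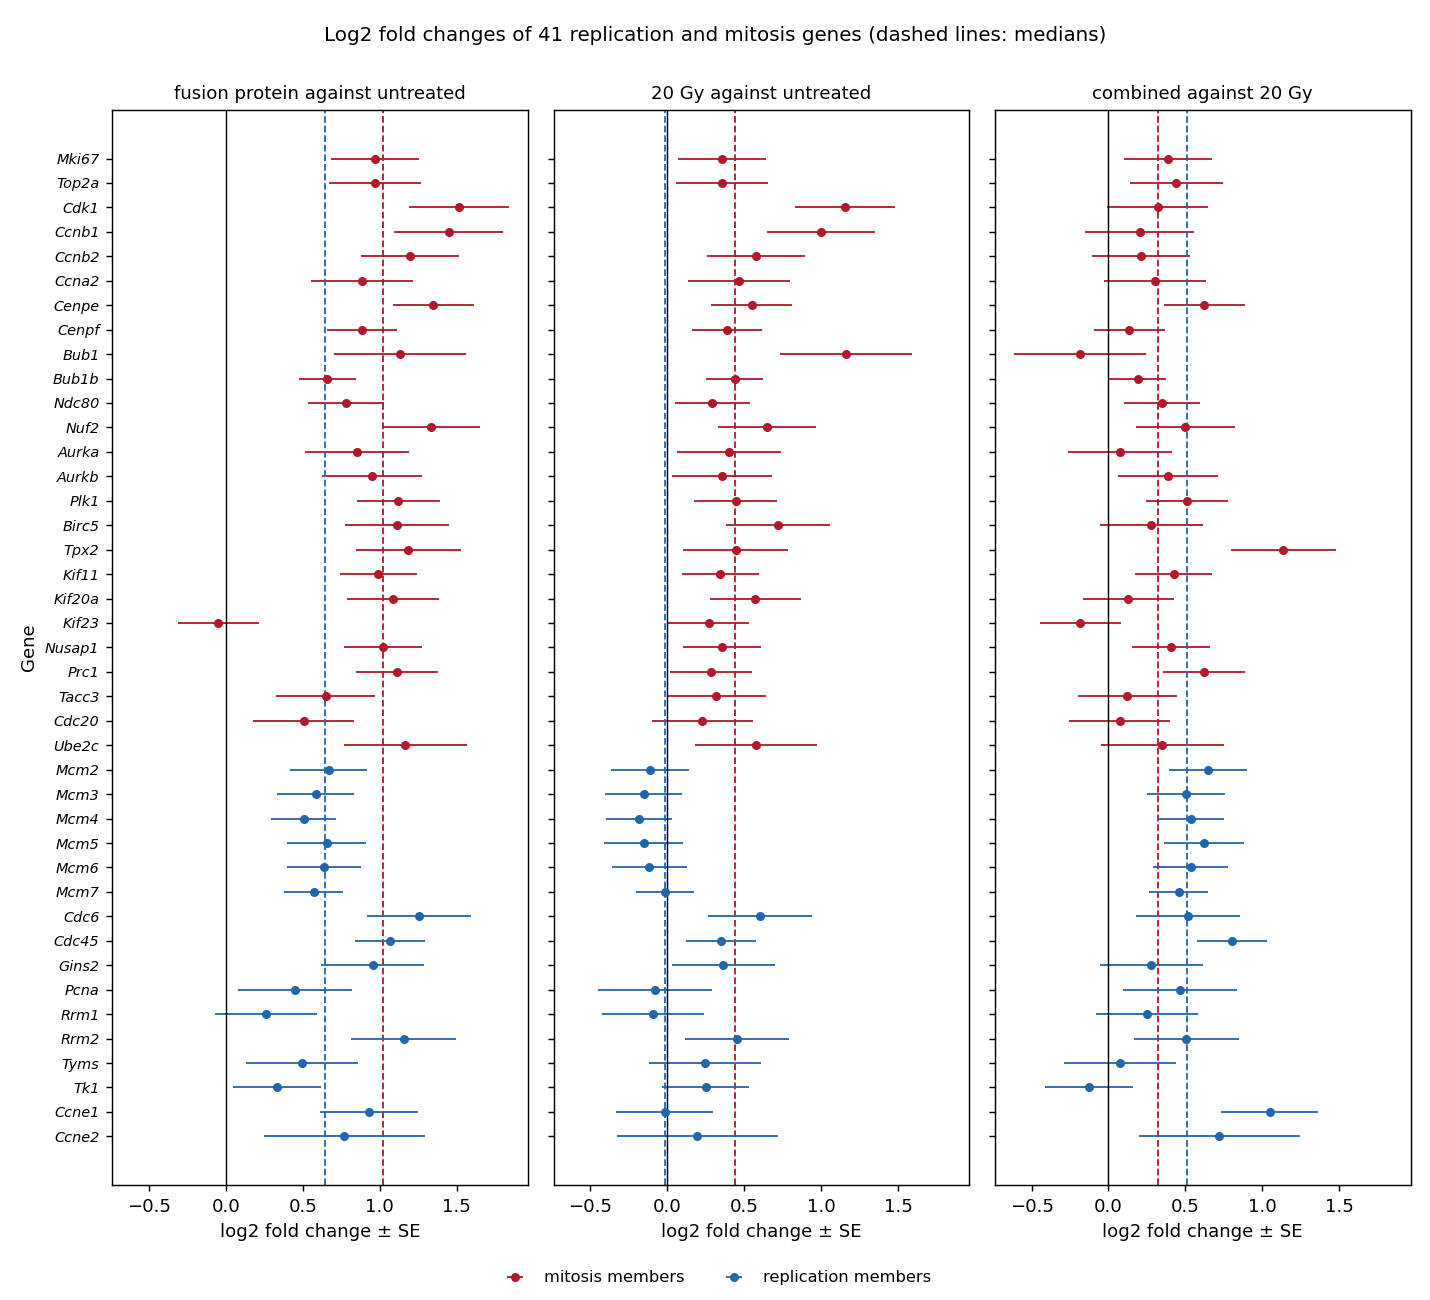
Log2 fold change (x axis, ± SE of limma) of each gene (y axis) for fusion protein against untreated, 20 Gy against untreated and combined against 20 Gy, with mitosis genes in red and replication genes in blue and dashed lines at the medians of each. The medians lie at 1.02 and 0.65 in the left panel, 0.44 and −0.02 in the middle panel and 0.32 and 0.51 in the right panel; only Cenpe in the left panel passed the test.

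With radiation and fusion protein combined, all 41 genes were higher than in untreated tumours, and 2 passed the test, the replication gene Cdc45 and the mitosis gene Tpx2. Cdc45 had 274, 281 and 299 normalized counts in combined libraries, against 121, 119.8 and 144 in untreated libraries. Combined values were tightly grouped and above all untreated values, and Cdc45 rose by 1.15 ± 0.23 on the log2 scale, 2.22-fold (limma adjusted p = 0.031). Tpx2 had 1105, 973 and 1579 normalized counts in combined libraries, against 362, 466 and 374 in untreated libraries. Combined library 3 was the highest, no values overlapped, and Tpx2 rose by 1.58 ± 0.34 on the log2 scale, 2.99-fold (limma adjusted p = 0.0497). Over all genes 1.4% passed.

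The call of Cdc45 held without any 1 fusion protein library or without 20 Gy library 3 (adjusted p 0.0171 to 0.0494, limma) and was lost without each of the other 8 libraries (0.054 to 0.173). The call of Tpx2 held without fusion protein library 2 or 3 or 20 Gy library 3 (0.0188 to 0.0434) and was lost without each of the other 9 (0.0708 to 0.258). With the replicate number as a block 16 of 41 genes passed, against 7.73% of all genes. They were Mki67, Top2a, Cdk1, Cenpe, Bub1, Nuf2, Plk1, Birc5, Tpx2, Kif11, Prc1 and Ube2c of mitosis and Cdc6, Cdc45, Rrm2 and Ccne1 of replication. Here, too, the block drew on all 12 libraries, with the unpaired numbers of combined and 20 Gy among them.

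For combined against untreated the median log2 fold change was 0.74 over the 41 genes, 0.77 over mitosis and 0.45 over replication genes, against 0.02 over all genes. In 26 of 41 genes all 3 combined values lay above all 3 untreated values, against 10.3% of all genes, and 26 reached an unadjusted p under 0.05, against 12.5%. Cdk1, with 297, 210.0 and 299 normalized counts in combined libraries, was at 1.48 ± 0.33 (adjusted p = 0.0544, limma; 0.00322 with the block), and Cenpe at 1.17 ± 0.26 (adjusted p = 0.0584; 0.0109 with the block). The lowest values were 0.09 for Kif23, 0.12 for Tk1 and 0.16 for Rrm1. The comparisons of fusion protein and of combined treatment share the untreated libraries, so they are not independent of each other.

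Averaged over irradiated and unirradiated tumours, the fusion protein effect was positive in 40 of 41 genes, and 6 passed: Cenpe, Tpx2, Prc1 and Plk1 of mitosis, and Cdc45 and Ccne1 of replication. Over all genes 3.29% passed. Cdc45 had the smallest adjusted p, with a log2 fold change of 0.93 ± 0.16 (0.00825, limma), followed by Cenpe with 0.99 ± 0.19 (0.0135). Tpx2 rose by 1.16 ± 0.24 (adjusted p = 0.0241), Prc1 by 0.87 ± 0.19 (0.0299), Ccne1 by 0.99 ± 0.22 (0.0366) and Plk1 by 0.82 ± 0.19 (0.0407). The median was 0.66 over the 41 genes, 0.70 over mitosis and 0.60 over replication genes, against −0.02 over all genes, and 31 reached an unadjusted p under 0.05, against 14.5% of all genes.

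The 6 genes differed in how the 12 libraries stood. They were picked by a test on these same values, so a separation of 6 from 6 libraries adds no further support. The share of all genes with such a separation was not counted. Prc1 had 556, 414 and 506 normalized counts in combined libraries, 662, 366 and 746 in fusion protein libraries, 281, 353 and 325 in 20 Gy libraries and 297, 268 and 221 in untreated libraries. All 6 libraries that received the protein lay above all 6 that did not, with fusion protein library 2 nearest to them. Plk1 had 164, 186 and 191 normalized counts in combined libraries, 213, 163 and 236 in fusion protein libraries, 102, 131 and 149 in 20 Gy libraries and 88.4, 124 and 71.4 in untreated libraries, again without overlap between the 6 and the 6. Ccne1, cyclin E1, had 209, 221 and 269 normalized counts in combined libraries, 185, 169 and 323 in fusion protein libraries, 85.4, 110.4 and 148 in 20 Gy libraries and 88.4, 111 and 147 in untreated libraries. For Ccne1, too, every library with the protein lay above every library without it, and 20 Gy and untreated libraries covered about the same range.

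Cdc45 had 281, 199 and 347 normalized counts in fusion protein libraries and 154, 171 and 164 in 20 Gy libraries, so its libraries with the protein also lay above those without it. Tpx2 had 915, 539.9 and 1514 in fusion protein libraries and 449, 494 and 719.8 in 20 Gy libraries. Here 20 Gy library 3 lay above fusion protein library 2, and for Cenpe, with 984, 858 and 987 in combined and 513, 549 and 809 in 20 Gy libraries, the same pair of libraries crossed. The calls of Cdc45 and Cenpe held in all 12 fits that left out 1 library (adjusted p 0.00323 to 0.0341 and 0.00487 to 0.047, limma). Those of Tpx2, Prc1, Plk1 and Ccne1 held in 5, 4, 3 and 3 of these 12 fits. They were lost without fusion protein library 1, 20 Gy libraries 1 and 2 and combined libraries 1 and 3 for all 4 genes, without fusion protein library 3 for all but Tpx2, and without combined library 2 for Plk1 and Ccne1. They were also lost without untreated library 1 for all but Prc1, untreated library 2 for Prc1 and Ccne1, and untreated library 3 for all but Ccne1. In the fits that lost them, adjusted p was 0.0547 to 0.0745 for Tpx2, 0.0569 to 0.0882 for Prc1, 0.0825 to 0.12 for Plk1 and 0.062 to 0.112 for Ccne1. Without the 4 libraries numbered 3, Cenpe and Ccne1 passed and Cdc45 did not (adjusted p = 0.0525). Without the 3 libraries richest in receptor genes, which leaves 1 library of the 20 Gy group, the median effect was 0.50, against 0.66 with all 12.

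**Figure D5:**
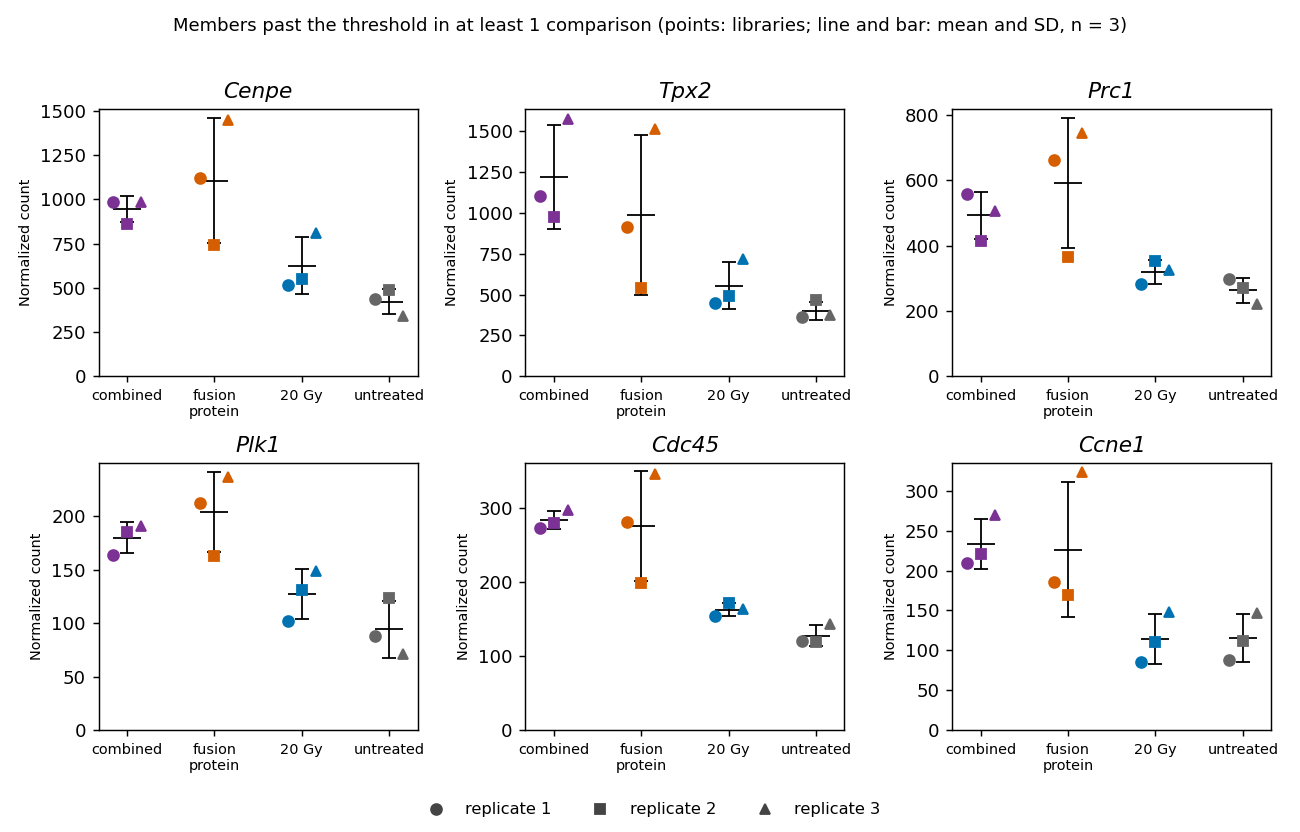
Normalized counts (y axis) of the 6 genes past the threshold in at least 1 comparison, by group (x axis); points are libraries, with a symbol for the replicate number, and lines and bars are the mean and SD of 3 libraries. In Prc1, Plk1, Cdc45 and Ccne1 all 6 combined and fusion protein points lie above all 6 points of 20 Gy and untreated libraries. The genes were picked by a test on these values, and the share of all genes with such a separation was not counted.

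Genes just short of the threshold for the averaged fusion protein effect were Nuf2 (0.92 ± 0.23, adjusted p = 0.0539, limma), Kif11 (0.71 ± 0.18, 0.0556), Nusap1 (0.71 ± 0.18, 0.0563) and Cdk1 (0.92 ± 0.23, 0.0573). Mcm subunits lay between 0.51 (Mcm7) and 0.66 (Mcm2), with adjusted p of 0.0673 for Mcm7 to 0.147 for Mcm3. Mki67 had 7379.6, 6143 and 6793 normalized counts in combined libraries, 7918, 5564 and 11179 in fusion protein libraries, 4146, 4332 and 7658 in 20 Gy libraries and 3375, 4204 and 4628 in untreated libraries. Its 20 Gy library 3 lay above combined libraries and fusion protein library 2, and the averaged effect was 0.68 ± 0.20 (adjusted p = 0.112). With the replicate number as a block, 28 of 41 genes passed for this effect, against 10.9% of all genes. They included Nuf2, Kif11, Nusap1, Cdk1, Mki67 (0.0104), Pcna (0.0335) and all 6 Mcm subunits (0.0053 for Mcm2 to 0.0202 for Mcm6). This effect takes in combined against 20 Gy, where the numbers were not taken to pair libraries. Without the block, Bub1, Aurka, Tacc3, Cdc20, Pcna, Rrm1, Tyms, Tk1 and Ccne2 were between 0.10 and 0.74 and Kif23 was at −0.12, each with an unadjusted p over 0.05.

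After 20 Gy alone, the 25 mitosis genes were all higher than in untreated tumours and the 16 replication genes were divided, 7 higher and 9 lower, but 0 of the 41 passed the test, as did 0% of all genes. At an unadjusted p under 0.05 there were 4 of 41 (limma), Cdk1, Ccnb1, Bub1 and Bub1b, against 6.74% of all genes. Of the 41, edgeR and DESeq2 called 0 each. Over all genes edgeR called 0, DESeq2 30 of 28779 and limma with the replicate block 70 of 18274. Equal replicate numbers did not clearly pair 20 Gy with untreated libraries. Cdk1 had 196, 171 and 284 normalized counts in 20 Gy libraries, all above its untreated values, with a log2 fold change of 1.16 ± 0.33 (adjusted p = 0.641, limma; 0.0588 with the block). Ccnb1 was at 1.00 ± 0.35, and Bub1, a checkpoint kinase, at 1.16 ± 0.43. Bub1 had 152, 134 and 269.6 normalized counts in 20 Gy libraries, against 99.6, 51.2 and 94.1 in untreated libraries, without overlap. Medians were 0.44 over mitosis and −0.02 over replication genes, against 0.04 over all genes, and 15 of 41 genes had all 3 values of 20 Gy above all 3 untreated values, against 6.73% of all genes.

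The helicase subunits Mcm2 to Mcm7 stood at or just below 0 after 20 Gy. Their log2 fold changes were −0.18 (Mcm4) to −0.01 (Mcm7), all below 0 and each smaller than its SE. Mcm2 had 869, 1260.1 and 1222 normalized counts in 20 Gy libraries, against 861, 1573 and 1243 in untreated libraries, and the groups overlapped throughout. Pcna, Rrm1 and Ccne1 were also at or just below 0 (−0.08, −0.09 and −0.02), whereas Cdc6, Rrm2, Gins2 and Cdc45 were at 0.60, 0.45, 0.36 and 0.35. Without the libraries richest in receptor genes, which leaves 20 Gy library 3 alone, the replication median was 0.28 and the mitosis median 0.69.

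Adding the fusion protein to 20 Gy gave higher values in 38 of 41 genes, with 0 past the test (limma, edgeR and DESeq2). Over all genes 1.03% passed with limma, 152 of 18274 with edgeR and 437 of 16670 with DESeq2. An unadjusted p under 0.05 was reached by 10 genes, against 8.99% of all genes. They were Cenpe, Tpx2 and Prc1 of mitosis and Mcm2, Mcm4, Mcm5, Mcm6, Mcm7, Cdc45 and Ccne1 of replication. Tpx2 had a log2 fold change of 1.14 ± 0.34 (adjusted p = 0.22, limma), Ccne1 of 1.05 ± 0.32 (0.223) and Cdc45 of 0.80 ± 0.23 (0.181). In 18 of 41 genes all 3 combined values lay above all 3 values of 20 Gy, against 8.36% of all genes.

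Replication genes had the larger median for combined against 20 Gy, 0.51, and mitosis genes 0.32, against −0.02 over all genes. All 6 Mcm subunits were non-overlapping here. Mcm2 had 1608, 2126 and 1498 normalized counts in combined libraries, against 869, 1260.1 and 1222 in 20 Gy libraries. Mcm6 had 3057, 3192 and 2784 in combined libraries, against 1691, 2157 and 2449 in 20 Gy libraries. The 6 log2 fold changes lay between 0.46 (Mcm7) and 0.64 (Mcm2), with SE of 0.19 to 0.26 and adjusted p of 0.438 to 0.62 (limma). Bub1, Kif23 and Tk1 were lower, at −0.19, −0.18 and −0.13. Without the 3 libraries richest in receptor genes, which leaves 1 library of the 20 Gy group, the mitosis median was −0.06 and the replication median 0.31. This comparison shares its 20 Gy libraries with that of 20 Gy against untreated.

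Radiation added to the fusion protein left the 41 genes lower in 36 cases and higher in 5, with 0 past the test and 0 with an unadjusted p under 0.05 (limma), and edgeR and DESeq2 called 0. Over all genes 0% passed and 2.92% had an unadjusted p under 0.05. In 0 of 41 genes did combined and fusion protein values stand apart in either direction. Over all genes 4.48% had all combined values above, and the share with all combined values below was not counted. The median was −0.18, with a range of −0.41 for Ccnb2 to 0.39 for Tpx2. Intervals were wide, for example −1.11 to 0.29 for Ccnb2 and −0.85 to 0.40 for Mki67 on the log2 scale. Without the libraries numbered 3, which include the highest fusion protein library, the median was 0.04.

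The radiation effect averaged over tumours with and without the protein was 0.07 at the median, 0.09 for mitosis and −0.03 for replication genes, against 0.04 over all genes. Of the 41 genes 0 passed (limma, edgeR and DESeq2), as did 0% of all genes with limma and edgeR. Over all genes, DESeq2 called 82 of 21325 and limma with the replicate block 815 of 18274. Cdk1 alone had an unadjusted p under 0.05 (0.56 ± 0.23, adjusted p = 0.446, limma), against 10.5% of all genes. The difference of differences, combined against 20 Gy minus fusion protein against untreated, was negative in 38 of 41 genes, with a median of −0.61 for mitosis and −0.09 for replication genes. Over all genes its median was −0.00025, and 49.96% were above 0. Without the libraries numbered 3, the median was −0.32 for mitosis and 0.13 for replication genes. The difference passed in 0 of 41 (limma, edgeR and DESeq2) and in 0% of all genes. An unadjusted p under 0.05 was reached by 5 mitosis genes, Cdk1, Ccnb1, Ccnb2, Cenpf and Kif20a (−1.19, −1.25, −0.99, −0.75 and −0.96, limma), against 1.03% of all genes. For the Mcm subunits the difference was −0.11 (Mcm7) to 0.03 (Mcm4).

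Other genes of the same processes were followed as lists. For the averaged fusion protein effect, 7 of 40 other replication genes rose and 0 fell, against 3.29% of all genes called in either direction, with a median of 0.48. Among them were Mcm10, a helicase activation factor (1.15 ± 0.21, adjusted p = 0.0128, limma), the fork protection factors Timeless (0.95 ± 0.18, 0.0147) and Clspn (0.88 ± 0.20, 0.038), the clamp loader subunit Rfc3 (0.74 ± 0.18, 0.0452), the polymerase Pole (0.62 ± 0.14, 0.0335) and the methyltransferase Dnmt1 (0.59 ± 0.14, 0.0431). Of 45 other mitosis genes 2 rose and 0 fell, Pttg1, the securin that holds back chromatid separation (1.01 ± 0.18, 0.00941), and Incenp, a chromosomal passenger (0.50 ± 0.11, 0.0391), with a median of 0.58. That count is near the share over all genes. Pttg1 had 412, 337 and 438 normalized counts in combined libraries, 412, 247 and 415 in fusion protein libraries, 194, 186 and 198 in 20 Gy libraries and 207, 136 and 187 in untreated libraries, with no overlap between libraries with and without the protein. How many of all genes had such a separation was not counted. In combined against untreated, Pttg1 (1.17 ± 0.25, 0.0477) and Mcm10 (1.44 ± 0.30, 0.0411) rose.

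Of 28 cell cycle regulators 1 rose for the averaged fusion protein effect, E2f8, a repressor of the E2F family (0.73 ± 0.17, limma adjusted p = 0.0444), and 0 fell, with a median of 0.46. This count, too, is near the 3.29% of all genes. E2f1, an activator of the family, was at 0.52 ± 0.20, Mybl2, a partner of the mitosis gene activator complex, at 0.87 ± 0.24, and Foxm1, which drives mitosis genes, at 0.47 ± 0.24. Cdkn1a, which encodes the cyclin-dependent kinase inhibitor p21, was high in every library numbered 3, with 1394, 1682 and 3787 normalized counts in combined libraries, 801, 443 and 4477 in fusion protein libraries, 277, 417 and 5696 in 20 Gy libraries and 239, 317 and 4261 in untreated libraries.

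Markers of cell types moved with the same comparisons. Over all genes 3.29% passed for the averaged fusion protein effect, in either direction. For cytotoxic and NK cells, 4 of 6 markers (Gzma, Gzmb, Prf1 and Nkg7) rose for this effect and 0 fell. The other 2, Ncr1 and Klrb1c, did not pass. Summed normalized counts of the 6 markers were 49605 to 84349 in combined, 44749 to 157340 in fusion protein, 8683 to 19203 in 20 Gy and 16557 to 24087 in untreated libraries. Fusion protein library 3 was the highest. For monocytes and macrophages 2 of 6 rose (Ly6c2 and Fcgr1), with sums of 12979 to 23980 in combined, 8060 to 17137 in fusion protein, 7464 to 9358 in 20 Gy and 3744 to 8050 in untreated libraries. The other 4 had log2 fold changes below 0 that did not pass, −0.93 for Adgre1, −0.60 for Csf1r, −0.48 for C1qa and −0.05 for Mertk. For conventional dendritic cells 4 of 6 fell (Cd209a, Xcr1, Flt3 and Zbtb46), with sums of 3920 to 5152 in combined, 2888 to 3829 in fusion protein, 9203 to 13215 in 20 Gy and 6540 to 9325 in untreated libraries. Clec9a and Ccr7 were not among those that fell. Of 4 plasmacytoid dendritic cell markers 1 rose (Bst2), with sums of 7076 to 9998 in combined, 5243 to 7211 in fusion protein, 5886 to 11001 in 20 Gy and 6241 to 15725 in untreated libraries. The other 3, Siglech, Ccr9 and Tcf4, had log2 fold changes below 0 and did not pass. T cell markers, of which 0 of 8 passed and 1 had an unadjusted p under 0.05 (limma), summed to 5920 to 16828 in combined, 8871 to 24462 in fusion protein, 4224 to 10941 in 20 Gy and 6463 to 27378 in untreated libraries. The part of these cell types in the levels of replication and mitosis genes was not tested.

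Melanoma markers were highest in the library numbered 3 of each group, with sums of 5 genes of 1193 in combined, 4173 in fusion protein, 14450 in 20 Gy and 1688 in untreated libraries numbered 3, against 94.9 to 399.5 in the other 8 libraries. No melanoma marker passed in any comparison. Without the 4 libraries numbered 3, the median of the 41 genes was 0.77 for fusion protein against untreated and 0.60 for the averaged fusion protein effect. The genes past the test then numbered 0 for fusion protein against untreated, 0 for combined against untreated and 2 for the averaged effect (limma). Over all genes 94, 168 and 483 of 18274 passed, in the same order. B and plasma cell markers were low in these libraries, with sums of 2626 in combined, 326 in fusion protein, 216 in 20 Gy and 189 in untreated library 3. No marker of any list was at 0 in all 3 libraries of a group.

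Several of the genes share exon bases with a gene on the opposite strand, and whether strand was used in counting is not given. The shared part was 67.3% for Gins2 (with Gse1), 29.3% for Kif20a (Cdc23), 22.8% for Ube2c (Tnnc2), 17.4% for Ccne2 (Ints8) and 12.5% for Ccna2 (Exosc9), so their values are uncertain. For genes past a threshold it was 11.1% for Prc1, 7.09% for Plk1 and 5.96% for Cdc45, and 0 for Cenpe, Tpx2 and Ccne1. Mcm7 shares 3.89% of its exon bases with microRNA genes on its own strand. Named pseudogenes exist for Ccnb1, Ccnb2, Pcna and Tyms and could take or give reads.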

How the data were processed

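Libraries were made from total RNA with a stranded low-input kit, per the labels' protocols. The tools of the authors were FastQC, Trimmomatic, STAR, featureCounts and DESeq2 on the build mm10, per the submitters' processing notes, with roles and versions not given in the sources used here. The deposited signal values are normalized counts, read counts that the authors divided by a size factor per library, and 100% of values came out as whole reads within 0.001 after that factor was removed. Symbols, exon lengths and coordinates came from GENCODE on mm10 for 99.53% of 55401 identifiers.

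A pseudocount of 1 was added to each deposited value, and its log2 entered limma 3.58.1 in R 4.3.3 (variance trend, 12 libraries in 4 groups, 8 residual and 3.313 prior degrees of freedom) for 18274 genes, two-sided, with Benjamini-Hochberg adjusted p-values over all of them and a threshold of 0.05. The averaged effects are means of a difference over both levels of the other treatment. Recovered whole reads were tested with edgeR 4.0.16 (quasi-likelihood) and DESeq2 1.42.0 as alternatives. Other alternatives were pseudocounts of 0.5 and 5, no filter, a mean of at least 50, a common total, TMM scaling, the replicate number as a block, fits of the compared groups alone, and fits with libraries left out. The main fit was tested on simulated counts, for fusion protein against untreated and for the averaged fusion protein effect. Those counts had no shared deviation by replicate number, and the alternatives were not tested in this way.

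Whether equal replicate numbers pair libraries was checked on residuals. Correlations of equal numbers were 0.334 to 0.389 for combined and 0.473 to 0.621 for fusion protein, each against untreated. They were 0.410 to 0.484 for combined against fusion protein, and pairing was accepted in these comparisons. For 20 Gy against untreated equal numbers gave 0.156 to 0.496 and unequal numbers −0.496 to 0.351. These ranges overlapped, so pairing was not clear there. For combined against 20 Gy equal numbers gave 0.0095 to 0.505 and unequal numbers −0.503 to 0.354, and pairing was not accepted. What the number marks is not stated in the labels.

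Members, lists and tests were chosen with earlier results of these data known. Per-library values are given for genes past the threshold in a comparison and for the gene of smallest p in each role group, and others were added after their values were seen. One gene of the wider replication list is counted but not reported here by name. Promoter letters came from RefSeq, GRCm38.p6.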

Additional observations from a re-analysis of the deposited data

How the results depend on the processing

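The number of the 41 genes past the threshold depended on the processing. Genes past it as reported kept their direction in every setting of the comparison in which they passed. So did the gene of smallest p in each role group, for the averaged fusion protein effect. Direction in each setting was not followed for the other genes. For fusion protein against untreated, 1 gene passed in the analysis as reported. It was 0 with no filter on low values, 2 with a mean normalized count of at least 50, 0 with a common total and 14 with DESeq2. With the replicate block it was 20, with only the groups compared 0, and with libraries left out 0 to 11 (11 without fusion protein library 2). A fit without the 3 libraries richest in receptor genes was chosen after seeing the data. It left 1 library of the 20 Gy group, so the numbers it called are left out of these ranges. Calls over all genes moved as well, from 136 of 18274 as reported. They were 125 of 48426 with no filter, 148 of 11748 with a mean of at least 50 and 371 of 15740 with DESeq2. Of 18274 genes, 110 passed with a common total, 602 with the block and 18 with only the groups compared. With libraries left out 46 to 178 passed, the most without fusion protein library 2. For combined against untreated, 2 passed as reported. It was 1 with a pseudocount of 0.5, 0 with no filter, 4 with a mean of at least 50, 1 with a common total and 3 with TMM scaling. It was 1 with edgeR, 4 with DESeq2, 16 with the replicate block, 1 with only the groups compared and 0 to 4 with libraries left out. Over all genes 256 of 18274 passed as reported, 212 of 48426 with no filter, 273 of 11748 with a mean of at least 50 and 573 of 19462 with DESeq2. Of 18274 genes, 254 passed with a pseudocount of 0.5, 207 with a common total, 268 with TMM scaling and 200 with edgeR. With the block 1413 passed, with only the groups compared 149, and with libraries left out 93 to 295. For the averaged fusion protein effect, 6 passed as reported. It was 3 with no filter, 11 with a mean of at least 50, 4 with a common total (Prc1 and Plk1 lost) and 10 with edgeR. It was 15 with DESeq2 (with 1062 of 16670 genes called in all) and 28 with the replicate block (1989 of 18274 in all). With libraries left out it was 2 to 16 (16 without fusion protein library 2). Over all genes 602 of 18274 passed as reported, 432 of 48426 with no filter and 634 of 11748 with a mean of at least 50. Of 18274 genes, 482 passed with a common total, 589 with edgeR and 339 to 648 with libraries left out (648 without fusion protein library 2). For combined against 20 Gy, 0 passed as reported and 3 with the replicate block (Tpx2, Cdc45 and Ccne1), against 834 of 18274 genes in all. The correlations did not bear out a block there. In the other 4 comparisons 0 passed in every setting. The cause of these shifts was not tested. Leaving libraries out lowers the residual degrees of freedom, and the filter sets how many genes share the adjustment. Of the median log2 fold changes, that of all 41 genes kept its sign in all settings for fusion protein against untreated (0.69 to 1.24) and combined against untreated (0.67 to 0.80). The replication median for 20 Gy against untreated ran from −0.16 to 0.28, and the mitosis median for combined against 20 Gy from −0.06 to 0.47. With 3 libraries a group, and 14462032 to 23985496 reads in genes, the intervals were wide. The smallest difference that the tests could detect was not computed.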
